A study of Mus musculus with 6 samples.

Results

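The genes described here build the N-linked glycan of secretory proteins in the endoplasmic reticulum (ER), transfer it to them and use it to check their folding. They were chosen by symbol, 33 genes in all, with the condition that a gene had at least 1 FPKM (fragments scaled to transcript length and to library size) in at least 3 of 6 libraries. All 33 met it, out of 9087 genes that did so among 24346 symbols. The lowest was Alg13, with 3.30, 4.25 and 3.34 FPKM in the IgM and 6.54, 5.42 and 0.652 FPKM in the IgG1 libraries.

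The study transferred congenically marked B1-8germ B cells, whose knocked-in heavy chain recognises the hapten NP, into wild-type C57BL/6J mice. Hosts received NP-CGG (NP on a carrier protein) in alum, and on day 7 plasma cells of donor origin were sorted from spleen as IgM or IgG1. Each isotype had 3 libraries, so both groups share the donor allele, the host strain, the immunisation and the day, and differ in the isotype sorted. The labels give neither the age of the mice nor how many mice stand behind each library. The p-values therefore rest on how far these libraries vary, and that variation may be technical in part.

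N-linked glycosylation starts on the lipid dolichol, where the ALG enzymes build an oligosaccharide of N-acetylglucosamine, mannose and glucose. The oligosaccharyltransferase moves it whole onto asparagines of proteins entering the ER, after which glucosidases trim its glucoses and the lectins calnexin and calreticulin hold the protein while it folds. Plasma cells rely on the pathway because immunoglobulin heavy chains and the joining chain are glycoproteins, and the mu heavy chain of IgM carries more N-glycan sites than the gamma1 chain of IgG1.

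Summed FPKM of 8 plasma cell markers ran from 44301 to 50167 in IgM and from 36772 to 39346 in IgG1 libraries. Most of the sum came from Jchain, Mzb1 and Xbp1, with IgM means of 26835, 13319 and 5580 FPKM. Prdm1 was the lowest of the 8, at 44.3 FPKM in IgM and 21.3 FPKM in IgG1 cells. Of the 8, 5 (Jchain, Prdm1, Irf4, Tnfrsf17 and Slamf7) were lower in IgG1 cells (limma adjusted p under 0.05), a call made for 1.76% of all tested genes. Lists for T cells, dendritic cells, erythroid cells and neutrophils summed to at most 7.29 FPKM in any library. The 6 proliferation genes summed to 524 to 589.7 FPKM in IgM and 601 to 714 FPKM in IgG1 libraries, with Mki67 lower (log2 fold change -1.77, SE 0.36, adjusted p = 0.0155) and Pcna higher (log2 fold change 0.48, SE 0.13, adjusted p = 0.048). Of the mature B cell markers, Ms4a1 was at 61.1, 70.5 and 64.6 FPKM in IgM and 45.9, 66.4 and 59.7 FPKM in IgG1 libraries 1 to 3, and Pax5 was listed at 0 in all 6. The list for monocytes and macrophages summed to 67.8 to 70.5 and 43.8 to 45.8 FPKM, mostly from Cd68, with Adgre1 and Cd14 at or near 0. Depth, estimated from the smallest step of FPKM multiplied by transcript length, was about 16220000 to 17780000 fragments per IgM library and 14790000 to 15490000 per IgG1 library. The libraries also differed in how values followed transcript length: the Spearman correlation of a library's deviations from the gene means with length was 0.15 to 0.30 in IgM and -0.15 to -0.24 in IgG1 libraries. Log2 fold changes were therefore also computed after the length and GC trend of each library was removed, called the corrected value. It is plotted for all 33 genes and printed for those past or near the threshold. What part the trend, the B cell, macrophage and proliferation transcripts or the depth had in any result was otherwise not tested. In bulk RNA, fewer cells expressing a gene and less RNA per cell cannot be told apart.

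The pathway as a whole took a like share of the transcripts in the libraries of 1 isotype. The 33 genes summed to 1.75, 1.74 and 1.67% of all FPKM in IgM libraries 1 to 3 and to 1.49, 1.38 and 1.43% in IgG1 libraries 1 to 3. As summed FPKM they made up 13136 ± 751 in IgM and 12655 ± 454 in IgG1 cells (SD, n = 3), with overlapping ranges. Total FPKM was larger in the IgG1 libraries, so the 2 scales differ in whether the groups overlap. Ddost, Calr, Dad1, Rpn2 and Rpn1, in that order of mean FPKM, were the 5 most abundant members. At the other end Alg13, Alg6, Tusc3, Alg12, Alg9, Dpm1, Mpi, Alg1, Pmm2 and Uggt1 had means under 50 FPKM.

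**Figure D1:**
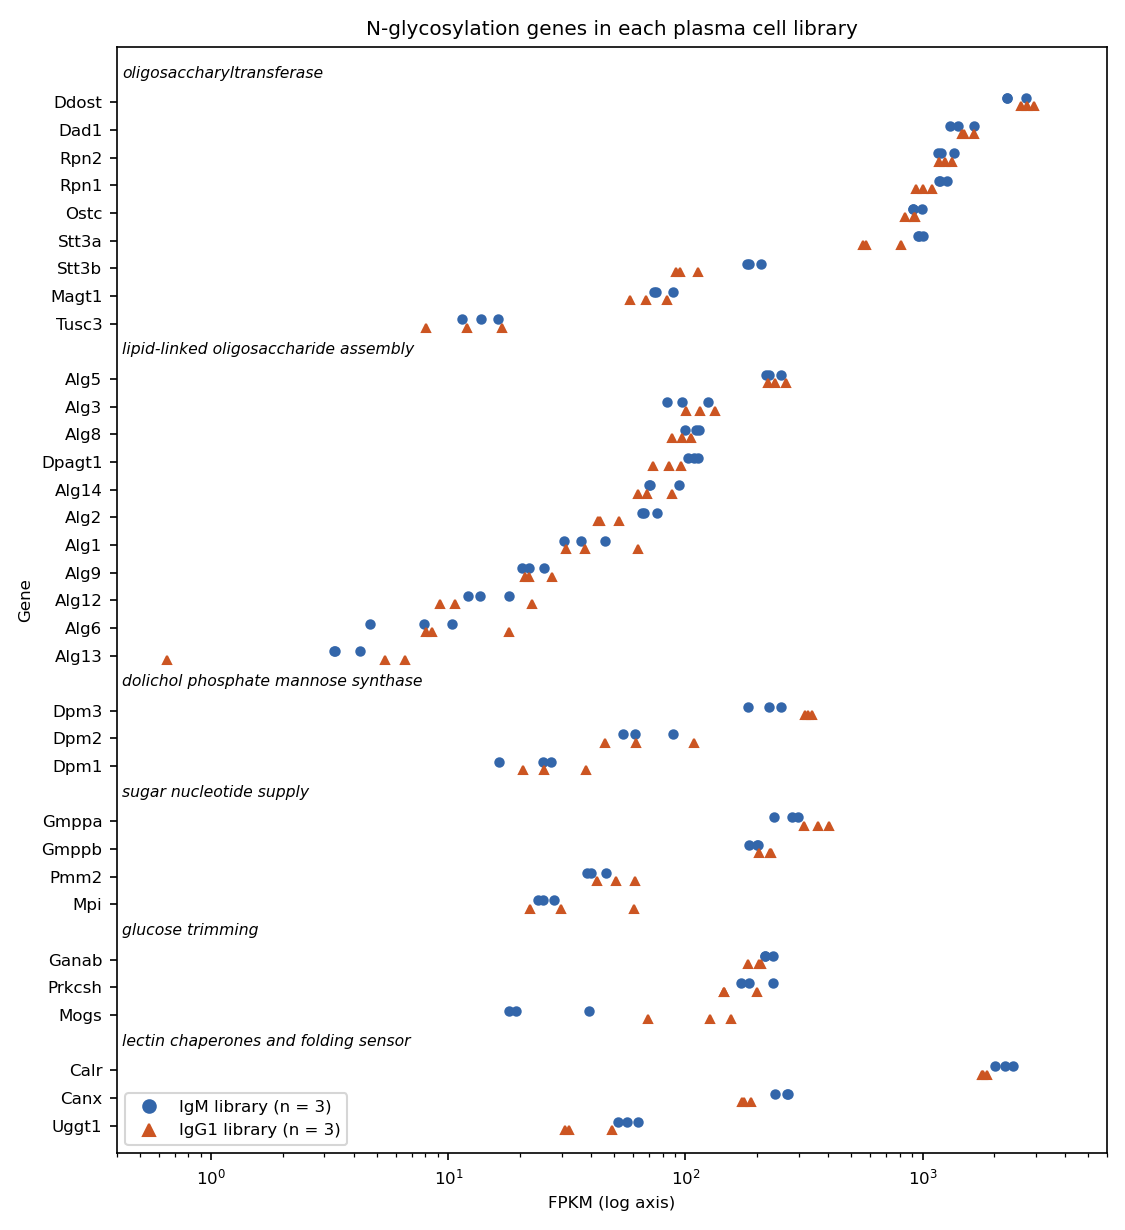
FPKM of the 33 genes (log axis, one line per gene, ordered by mean level within each role) in the 3 IgM libraries (circles) and 3 IgG1 libraries (triangles). Oligosaccharyltransferase genes and Calr hold the highest levels, and Mogs is the gene whose groups lie farthest apart, at 18.0 to 39.2 FPKM in IgM and 69.8 to 155 FPKM in IgG1.

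The comparison of IgG1 with IgM plasma cells asks how the pathway differs between switched and unswitched donor cells that share the knocked-in heavy chain allele. Of the 33 genes, 2 were higher in IgG1 cells (Mogs and Dpm3) and 3 lower (Stt3b, Stt3a and Canx), by limma on log2(FPKM + 1) with Benjamini-Hochberg adjusted p under 0.05 over all 9087 genes. These are 6.06% and 9.09% of the members, beside 4.26% and 1.76% of all tested genes called higher and lower, and 6.02% in either direction. At an unadjusted p under 0.05, 8 of the 33 members were lower, beside 10.2% of all genes, and 3 higher, beside 11.9%. Among all genes higher calls made up 70.7% of the calls, against 80.6% with medians centred, 48.5% with quantiles normalized and 31.1% with Jchain left out of the scaling. The last setting divides each library by its summed FPKM without Jchain. It therefore also makes those sums equal between libraries, which the main fit does not, and these steps were not separated. The members' median log2 fold change was -0.07 and that of all tested genes -0.05. All 3 IgG1 libraries lay above all 3 IgM libraries for 4 members (12.1%, against 13.7% of all genes), and all 3 IgM libraries lay above for 9 members (27.3%, against 13.5%). Members were more abundant than all tested genes (median of the mean FPKM 102 and 12.8) and varied less between libraries. What part this had in the shares was not tested. All 5 calls were lost without the filter on low values or without limma's intensity trend, where the calls over all genes fell from 547 to 6 and 8. After correction 1 member was higher, Mogs, and 1 lower, Stt3b, beside 2.04% and 0.924% of 8765 genes with a known length, and the sign turned for Magt1, Ganab and Dpm2.

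**Figure D2:**
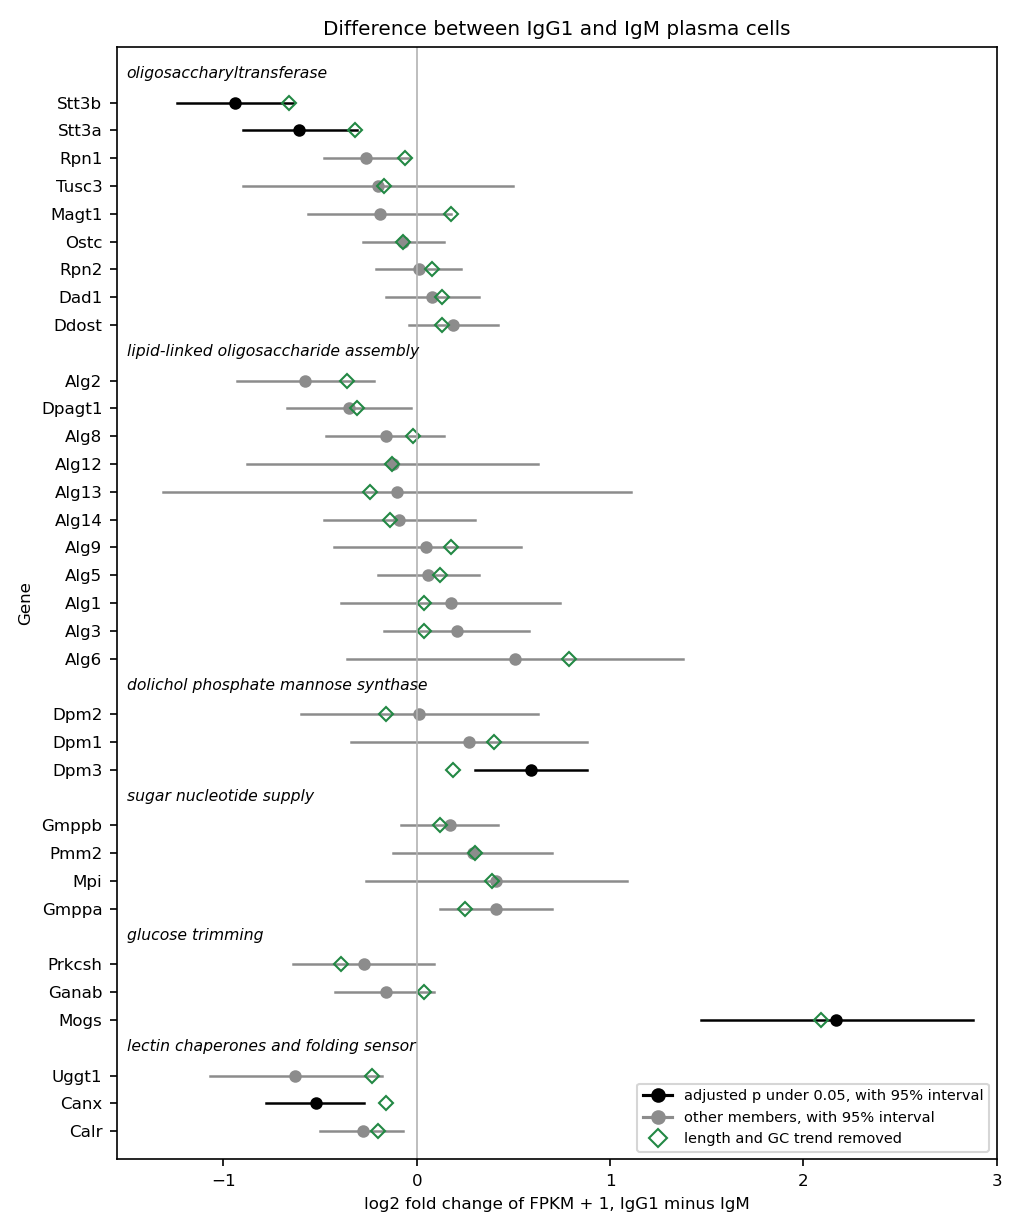
Log2 fold change (IgG1 minus IgM, of FPKM + 1) of each gene with limma's 95% interval, black where the adjusted p was under 0.05, and the value after the length and GC trend was removed (open diamonds). Mogs stands at 2.17 before and 2.09 after removal, and Canx moves from -0.52 to -0.16.

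Both catalytic subunits of the oligosaccharyltransferase were lower in IgG1 plasma cells, and after correction Stt3b alone passed the test. None of the other 7 subunit genes among the members passed. Of the small subunits in a second list described below, Ost4 and Tmem258 passed in the higher direction (log2 fold change 0.46 and 0.40, limma adjusted p = 0.0329 and 0.0443). Neither did after correction. Stt3b, the catalytic subunit of the complex that glycosylates sites skipped during translocation, was 1.92-fold lower, at 192 ± 14.0 in IgM and 99.6 ± 11.4 in IgG1 cells (FPKM, SD, n = 3). Stt3a, the catalytic subunit of the complex docked on the translocon, was 33.4% lower, at 975 ± 26.2 in IgM and 649 ± 140.4 in IgG1 cells. Of the 9 oligosaccharyltransferase members 2 passed the test, both lower (22.2%, against 1.76% of all tested genes). In the higher direction 0 passed, against 4.26% of all tested genes (also 0 at an unadjusted p under 0.05 with limma). After correction 1 of the 9 passed, Stt3b.

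Stt3b was at 185, 182 and 208 FPKM in IgM libraries 1 to 3 and 95.1, 91.0 and 113 FPKM in IgG1 libraries 1 to 3. The groups did not overlap, and the lowest IgM library stood well above the highest IgG1 library (log2 fold change -0.94, SE 0.14, adjusted p = 0.00474). After correction the value was -0.66 (SE 0.14, adjusted p = 0.0284), and the call held when any 1 library was left out (log2 fold change -1.03 to -0.88, largest adjusted p = 0.0296). Stt3a was at 965, 955 and 1005 FPKM in IgM libraries 1 to 3 and 811, 577 and 559.8 FPKM in IgG1 libraries 1 to 3. IgM libraries were close together, and IgG1 library 1 lay between them and the other IgG1 libraries (log2 fold change -0.61, SE 0.14, adjusted p = 0.0252). The corrected value of Stt3a was -0.32 (SE 0.11, adjusted p = 0.147), a smaller difference that did not pass. Without any 1 library other than IgG1 library 1, its adjusted p was 0.0533 to 0.0956. In GRCm38 Stt3b lies on chromosome 9 from 115242581 to 115310421 and Stt3a on chromosome 9 from 36729344 to 36767679, both protein-coding and on the minus strand.

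Ddost, the structural subunit OST48, was the most abundant gene of the set, at 2282, 2736 and 2271 FPKM in IgM libraries 1 to 3 and 2749, 2600.0 and 2946 FPKM in IgG1 libraries 1 to 3. Dad1, a small membrane subunit whose name comes from its defence against cell death, was at 1414, 1642 and 1309 FPKM in IgM libraries 1 to 3 and 1489, 1461 and 1653 FPKM in IgG1 libraries 1 to 3. For both genes the groups overlapped, and their log2 fold changes were 0.19 (95% interval -0.04 to 0.42, adjusted p = 0.32) and 0.08 (95% interval -0.16 to 0.32, adjusted p = 0.726). Rpn2 and Ostc, the latter a subunit of the STT3A complex, also overlapped between groups, with differences of 0.01 (95% interval -0.21 to 0.23, adjusted p = 0.96) and -0.07 (95% interval -0.28 to 0.14, adjusted p = 0.737). With quantiles normalized, Rpn2 and Dad1 turned to -0.35 and -0.32, past the threshold (limma adjusted p = 0.0293 and 0.0422), and Ostc passed at -0.42 (adjusted p = 0.0249). Rpn1, ribophorin I, was at 1272, 1181 and 1169 FPKM in IgM libraries 1 to 3 and 1093, 1008 and 935 FPKM in IgG1 libraries 1 to 3. Its groups did not overlap, and the difference of -0.26 (95% interval -0.48 to -0.04, adjusted p = 0.155) did not pass the threshold, with a corrected value of -0.06 (SE 0.08, adjusted p = 0.736). Rpn1 passed with quantiles normalized (-0.64, adjusted p = 0.00902) and with Jchain left out of the scaling (-0.49, adjusted p = 0.019).

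Magt1 and Tusc3 encode alternative thiol oxidoreductase subunits of the STT3B complex. Magt1 was the more abundant in every library, at 79.3 FPKM in IgM and 69.9 FPKM in IgG1 cells, against 13.8 FPKM in IgM and 12.2 FPKM in IgG1 cells for Tusc3. The groups overlapped for both genes, with differences of -0.19 (95% interval -0.56 to 0.18, adjusted p = 0.57) and -0.20 (95% interval -0.90 to 0.50, adjusted p = 0.768). The corrected value of Magt1 had the other sign, 0.18 (SE 0.15, adjusted p = 0.588). The ratio of Stt3b to the sum of Magt1 and Tusc3, computed from FPKM within a library, was 2.07 ± 0.25 in IgM and 1.23 ± 0.257 in IgG1 libraries (SD, n = 3). The ratio of Stt3b to Magt1 from corrected values was 2.24, 2.33 and 2.93 in IgM libraries 1 to 3 and 1.33, 1.12 and 1.76 in IgG1 libraries 1 to 3. The groups did not overlap in either ratio, both of which are given as descriptions.

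Relative to Ddost, the catalytic subunits took a smaller place in each IgG1 library than in each IgM library. Before correction Ddost had the most positive log2 fold change of the 9 oligosaccharyltransferase members (0.19), which widens the gap in ratios to it. The ratio of summed Stt3a and Stt3b to Ddost was 0.504, 0.416 and 0.534 in IgM libraries 1 to 3 and 0.330, 0.257 and 0.228 in IgG1 libraries 1 to 3. Stt3a and Stt3b have longer transcripts (3076 and 4221 nt) than Ddost (2120 nt). From corrected values the ratio of Stt3a to Ddost was 0.341 to 0.381 in IgM and 0.234 to 0.305 in IgG1 libraries, and that of Stt3b to Ddost 0.0639 to 0.0792 and 0.0356 to 0.0490, both without overlap. The ratio of Stt3a to Stt3b, by contrast, overlapped between groups, at 4.84 to 5.25 in IgM and 4.97 to 8.53 in IgG1 libraries, the highest being IgG1 library 1.

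**Figure D3:**
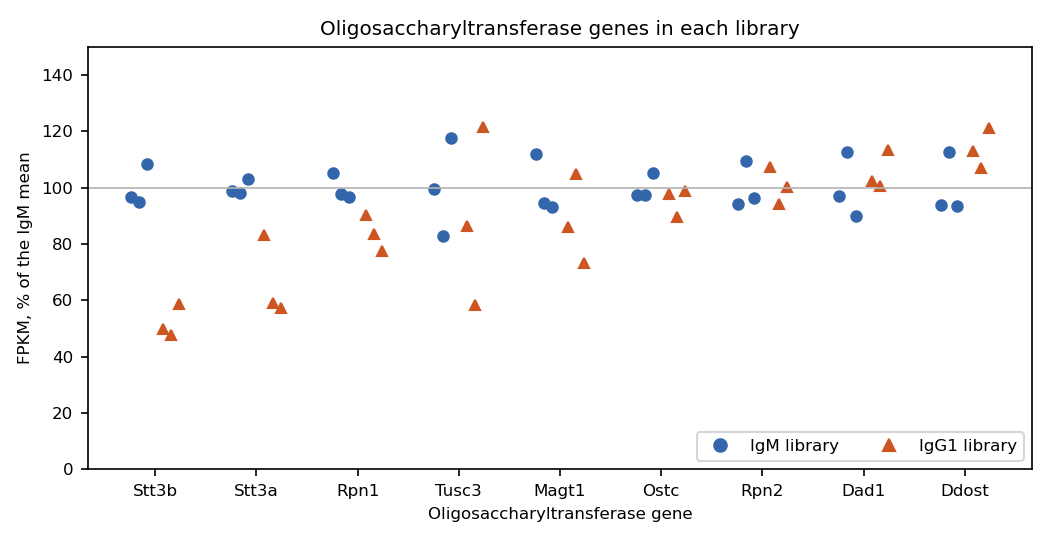
FPKM of the 9 oligosaccharyltransferase genes in each library as a percentage of the gene's IgM mean (circles IgM, triangles IgG1, libraries 1 to 3 from left to right, genes ordered by fold change). The IgG1 points of Stt3b and Stt3a lie below every IgM point, as do those of Rpn1, while Ostc, Rpn2, Dad1 and Ddost overlap around the line at the IgM mean.

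Among the enzymes that assemble the lipid-linked oligosaccharide, none of the 11 passed the test in either direction (limma, with 0 higher and 2 lower at an unadjusted p under 0.05), and their median log2 fold change was -0.09. The 2 with an unadjusted p under 0.05 act at early steps on the cytosolic face of the ER. Alg2, the mannosyltransferase that adds mannoses after the first, was at 67.1, 75.7 and 65.7 FPKM in IgM libraries 1 to 3 and 52.4, 43.8 and 42.8 FPKM in IgG1 libraries 1 to 3. Its groups did not overlap, and its difference was -0.58 (95% interval -0.93 to -0.22, adjusted p = 0.0598). The corrected value was -0.36 (SE 0.16, adjusted p = 0.255), and the adjusted p was 0.0462 without IgG1 library 1. Dpagt1, which starts the chain by loading the first N-acetylglucosamine onto dolichol, was lower in each IgG1 library at 108 FPKM in IgM and 84.8 FPKM in IgG1 cells, with a difference of -0.35 (95% interval -0.67 to -0.03, adjusted p = 0.193). With Jchain left out of the scaling both passed, Alg2 at -0.81 (adjusted p = 0.0186) and Dpagt1 at -0.58 (adjusted p = 0.0362), and Alg2 also with quantiles normalized (-0.64, adjusted p = 0.049).

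The most abundant gene of this step was Alg5, which makes the dolichol-linked glucose that the lumenal glucosyltransferases use. It was at 219, 253 and 225 FPKM in IgM libraries 1 to 3 and 223, 266 and 239 FPKM in IgG1 libraries 1 to 3, and the groups overlapped (log2 fold change 0.06, 95% interval -0.20 to 0.32, adjusted p = 0.817). Alg3, the mannosyltransferase that takes over on the lumenal face, was at 83.4, 124 and 96.5 FPKM in IgM libraries 1 to 3 and 101, 115 and 133 FPKM in IgG1 libraries 1 to 3, again with overlap (log2 fold change 0.21, 95% interval -0.17 to 0.58, adjusted p = 0.535). The paired subunits of the second N-acetylglucosamine transferase differed in level: the membrane anchor Alg14 was at 78.2 FPKM in IgM and 73.4 FPKM in IgG1 cells, and its catalytic partner Alg13 at 3.63 FPKM in IgM and 4.20 FPKM in IgG1 cells.

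By estimate, the levels of Alg13 rested on few fragments. The estimate multiplies FPKM by a median transcript length, 604 nt for Alg13, and by the estimated depth. The annotation behind the deposited FPKM is not known, so the numbers are rough. In IgG1 library 3 its 0.652 FPKM corresponded to about 6 fragments, against about 61 in IgG1 library 1, and its interval was wide (log2 fold change -0.10, 95% interval -1.31 to 1.11, adjusted p = 0.938), with the mean FPKM and the log2 difference of opposite sign. The lumenal mannosyltransferase gene Alg9 was at 22.5 FPKM in IgM and 23.5 FPKM in IgG1 cells and Alg12, which acts between the steps of Alg9, at 14.6 FPKM in IgM and 14.2 FPKM in IgG1 cells. The glucosyltransferase genes Alg6 and Alg8 were at 7.62 FPKM in IgM and 11.5 FPKM in IgG1 cells and at 108 FPKM in IgM and 96.7 FPKM in IgG1 cells, in that order, and Alg1, which adds the first mannose, at 37.6 FPKM in IgM and 44.0 FPKM in IgG1 cells. All 5 overlapped between groups, as did Alg14, with log2 fold changes from -0.16 for Alg8 to 0.51 for Alg6. The 95% interval of Alg6 ran from -0.36 to 1.38, which holds differences of both signs.

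Dolichol phosphate mannose synthase makes the mannose donor used inside the ER, from the catalytic subunit Dpm1, the regulatory subunit Dpm2 and Dpm3, which tethers Dpm1 to the membrane. Dpm3 was 1.49-fold higher in IgG1 cells, the 1 of 3 subunits past the threshold (33.3%, against 4.26% of all tested genes called higher). It was at 183, 253 and 225 FPKM in IgM libraries 1 to 3 and 319, 328 and 341 FPKM in IgG1 libraries 1 to 3. The groups did not overlap, and the IgG1 libraries lay close together (log2 fold change 0.59, SE 0.13, adjusted p = 0.025). Its transcript is short, at 615.5 nt, and the corrected value was 0.19 (SE 0.10, adjusted p = 0.372). The call was lost without IgM library 1 or 3 or IgG1 library 2 or 3 (adjusted p 0.0743 to 0.124) and after quantile normalization (0.43, adjusted p = 0.0576) or rescaling without Jchain (0.36, adjusted p = 0.0756). Dpm2 was at 54.7, 61.4 and 88.3 FPKM in IgM libraries 1 to 3 and 61.7, 45.6 and 108 FPKM in IgG1 libraries 1 to 3, and IgG1 libraries 2 and 3 held its lowest and highest values (log2 fold change 0.01, 95% interval -0.60 to 0.63, adjusted p = 0.981). Dpm1 was at 22.8 FPKM in IgM and 28.0 FPKM in IgG1 cells, with overlapping groups (log2 fold change 0.27, 95% interval -0.34 to 0.88, adjusted p = 0.626).

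The enzymes that supply GDP-mannose had log2 fold changes above 0 for all 4 genes, with a median of 0.35, and none passed the test (limma, with 1 higher and 0 lower at an unadjusted p under 0.05). The sign of Gmppb turned after rescaling without Jchain (-0.06), and that of the other 3 stayed positive under each scaling. Gmppa, the regulatory partner of the GDP-mannose pyrophosphorylase, was at 236, 298 and 280.2 FPKM in IgM libraries 1 to 3 and 317, 363 and 401 FPKM in IgG1 libraries 1 to 3. The catalytic partner Gmppb was at 200.0, 202 and 185 FPKM in IgM libraries 1 to 3 and 228, 205 and 229.5 FPKM in IgG1 libraries 1 to 3. For both genes every IgG1 library lay above every IgM library, with differences of 0.41 (95% interval 0.12 to 0.70, adjusted p = 0.0883) and 0.17 (95% interval -0.08 to 0.42, adjusted p = 0.434). Exons of Gmppb overlap those of Rnf123, and reads of both may be shared between them. Gmppa had the closest value to the threshold of the 4, and its corrected value was 0.25 (SE 0.11, adjusted p = 0.25).

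Upstream of them, Mpi converts fructose 6-phosphate to mannose 6-phosphate and Pmm2 moves the phosphate to make mannose 1-phosphate. Mpi was at 27.9, 25.1 and 23.9 FPKM in the IgM libraries and 30.0, 22.2 and 60.5 FPKM in the IgG1 libraries. Its IgG1 mean rested on library 3, without which the log2 fold change was 0.01 in place of 0.41. Pmm2 was at 41.6 FPKM in IgM and 51.6 FPKM in IgG1 cells, and its groups overlapped (log2 fold change 0.29, 95% interval -0.12 to 0.70, adjusted p = 0.409).

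Glucose trimming held the largest difference among the 33 genes. Mogs, glucosidase I, which removes the outermost glucose as soon as the glycan is transferred, was 4.60-fold higher in IgG1 cells, at 25.5 ± 11.9 in IgM and 117 ± 43.4 in IgG1 cells (FPKM, SD, n = 3). It was at 18.0, 19.2 and 39.2 FPKM in IgM libraries 1 to 3 and 69.8, 127 and 155 FPKM in IgG1 libraries 1 to 3. The groups did not overlap, and both groups spread widely, with IgG1 library 1 the lowest of its group and IgM library 3 the highest of its own (log2 fold change 2.17, SE 0.32, adjusted p = 0.00475). These values corresponded to about 810, 867 and 1937 fragments in the IgM and 3006, 5206 and 6672 fragments in the IgG1 libraries. The corrected value was 2.09 (SE 0.31, adjusted p = 0.00657), and without any 1 library the log2 fold change stayed between 1.93 and 2.52 (largest adjusted p = 0.0319).

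Mogs lies on chromosome 6 from 83115496 to 83118898 in GRCm38, on the plus strand, and no exon of another annotated gene overlaps its exons. Its neighbours were named after their values were seen. Wbp1, downstream on the minus strand, was at 57.1 FPKM in IgM and 84.0 FPKM in IgG1 cells (log2 fold change 0.50, 95% interval 0.03 to 0.98, adjusted p = 0.203). Mrpl53, upstream on the plus strand, was at 123 FPKM in IgM and 132 FPKM in IgG1 cells (log2 fold change 0.11, 95% interval -0.19 to 0.40, adjusted p = 0.705). Ino80b, beyond Wbp1, was at 17.2, 29.4 and 16.5 FPKM in the IgM and 20.5, 37.9 and 37.8 FPKM in the IgG1 libraries (log2 fold change 0.58, 95% interval -0.07 to 1.24, adjusted p = 0.284). None of these 3 neighbours passed the threshold, and the groups overlapped for each, although Wbp1 passed in 1 of the 6 fits that left out a library. Their corrected values were 0.19 for Wbp1, -0.20 for Mrpl53 and 0.23 for Ino80b, none past the threshold.

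The other glucose trimming genes encode glucosidase II, which takes off the remaining glucoses and so sets when the lectins bind and release. Ganab, its catalytic subunit, was at 217, 217 and 233 FPKM in IgM libraries 1 to 3 and 204, 184 and 209 FPKM in IgG1 libraries 1 to 3. Every IgM library lay above every IgG1 library by a small margin (log2 fold change -0.16, 95% interval -0.42 to 0.09, adjusted p = 0.453), and the corrected value was 0.04 (SE 0.11, adjusted p = 0.895). Prkcsh, the subunit that retains the enzyme in the ER, was at 185, 234 and 172 FPKM in IgM libraries 1 to 3 and 201, 145 and 145 FPKM in IgG1 libraries 1 to 3, with overlap (log2 fold change -0.27, 95% interval -0.64 to 0.09, adjusted p = 0.364). The ratio of Mogs to Ganab was 0.0827, 0.0884 and 0.168 in IgM libraries 1 to 3 and 0.342, 0.688 and 0.743 in IgG1 libraries 1 to 3. The same ratio from corrected values was 0.0954 to 0.192 and 0.339 to 0.643, without overlap.

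The promoter windows of Mogs and Stt3b, the members that stayed past the threshold after correction, are shown as the sequence at the start of each gene. They come from RefSeq on GRCm38.p6 and hold 250 bases before and 50 after the start, read in the direction of the gene. Mogs is chr6:83115256-83115555 (plus strand), with its 1 match to GGGCGG (a GC box) in capitals, and Stt3b is chr9:115310419-115310718 (minus strand), with CCAAT or CCACG on either strand in capitals. The Stt3b window also holds several matches to GGGCGG, on both strands, which are left in lower case.
Mogs: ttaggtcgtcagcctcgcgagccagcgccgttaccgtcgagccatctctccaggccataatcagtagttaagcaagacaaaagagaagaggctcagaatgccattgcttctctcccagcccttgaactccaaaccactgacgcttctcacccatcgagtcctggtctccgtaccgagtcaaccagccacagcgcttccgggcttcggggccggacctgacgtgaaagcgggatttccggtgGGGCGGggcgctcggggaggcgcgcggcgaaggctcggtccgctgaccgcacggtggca
Stt3b: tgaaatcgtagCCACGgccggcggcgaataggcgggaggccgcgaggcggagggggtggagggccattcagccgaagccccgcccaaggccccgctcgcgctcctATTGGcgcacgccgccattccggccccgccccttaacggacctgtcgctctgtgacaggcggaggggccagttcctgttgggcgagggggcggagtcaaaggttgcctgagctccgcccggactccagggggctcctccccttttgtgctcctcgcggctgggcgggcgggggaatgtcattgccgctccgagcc
In the Mogs window neither CCAAT nor CCACG was found on either strand. CCAAT was present for 17 of the 28 members with a window (60.7%), against 41.1% of all 27025 symbols with one, CCACG for 13 (46.4%, against 35.5%) and GGGCGG for 18 (64.3%, against 38.2%), each searched on both strands. The unfolded protein response element TGACGTGG was found for 0 of the 28 and for 0.714% of all symbols. All symbols include genes below the FPKM filter that every member passed, and shares among tested genes alone were not computed. These letter matches are descriptions of the windows.

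Of the lectin cycle's 3 genes, 1 passed the test, Canx, which was lower (33.3%, against 1.76% of all tested genes). After correction 0 of the 3 passed, and their median log2 fold change was -0.20. Canx, the membrane lectin chaperone calnexin, was 1.44-fold lower, at 259 ± 16.9 in IgM and 179 ± 7.61 in IgG1 cells. Calr, its soluble partner calreticulin, and Uggt1, the sensor that puts a glucose back on misfolded glycoproteins so that the lectins bind again, had unadjusted p under 0.05 and did not pass after adjustment. For all 3 genes every IgM library lay above every IgG1 library, as for 13.5% of all genes, and all 3 were negative under each scaling tried. In the same libraries the plasma cell regulators Prdm1 (log2 fold change -1.02, SE 0.22, adjusted p = 0.0222) and Irf4 (log2 fold change -0.73, SE 0.15, adjusted p = 0.0153) were lower as well, and Xbp1 was at 5579.9 FPKM in IgM and 6636 FPKM in IgG1 cells (log2 fold change 0.25, 95% interval 0.05 to 0.45, adjusted p = 0.136). After correction Prdm1 was at -0.72 (SE 0.20, adjusted p = 0.0825) and Irf4 at -0.39 (SE 0.14, adjusted p = 0.172), and without IgM library 1 neither passed (adjusted p = 0.118 and 0.0987). Their part in the result was not tested.

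Canx was at 267, 239 and 269.7 FPKM in IgM libraries 1 to 3 and 177, 174 and 188 FPKM in IgG1 libraries 1 to 3. The values within each group were close together, and a gap separated the groups (log2 fold change -0.52, SE 0.12, adjusted p = 0.0234). Its transcript is 4030 nt long, and the corrected value was -0.16 (SE 0.12, adjusted p = 0.535). The call was lost without IgM library 1 or 3 or IgG1 library 2 (adjusted p 0.0745 to 0.123). Calr was at 2222, 2409 and 2019 FPKM in IgM libraries 1 to 3 and 1789, 1791 and 1875 FPKM in IgG1 libraries 1 to 3. Its IgG1 libraries were the more alike, and its difference was -0.28 (95% interval -0.50 to -0.07, adjusted p = 0.114), with a corrected value of -0.20 (SE 0.08, adjusted p = 0.233). It passed with quantiles normalized (-0.65, adjusted p = 0.00123) and with Jchain left out of the scaling (-0.51, adjusted p = 0.0043). That scaling also makes the summed FPKM of the other genes equal between libraries, and it lowers the median of all genes from -0.05 to -0.25. Uggt1 was at 56.8, 63.1 and 52.1 FPKM in IgM libraries 1 to 3 and 49.0, 32.3 and 31.1 FPKM in IgG1 libraries 1 to 3. IgG1 library 1 was the nearest to the IgM libraries, and the difference was -0.63 (95% interval -1.07 to -0.18, adjusted p = 0.0958). Uggt1 has the longest transcript of the set, 9033 nt, and its corrected value was -0.23 (SE 0.18, adjusted p = 0.56). Uggt1 passed without IgG1 library 1 (-0.83, adjusted p = 0.0325) and with Jchain left out of the scaling (-0.85, adjusted p = 0.0366).

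**Figure D4:**
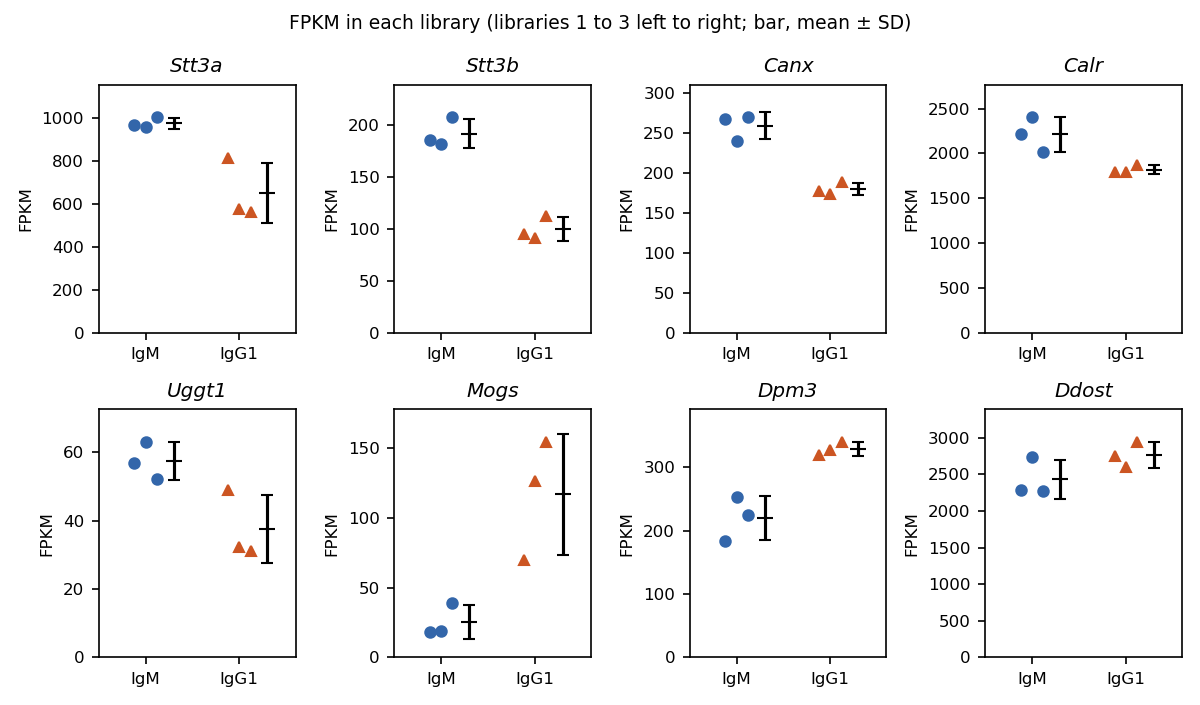
FPKM of 8 of the genes in each library (circles IgM, triangles IgG1, libraries 1 to 3 from left to right) with the group mean ± SD beside the points, each axis starting at 0. Stt3a, Stt3b, Canx, Calr and Uggt1 lie lower in all IgG1 libraries, Mogs and Dpm3 lie higher, and Ddost overlaps.

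Calr and Canx share a sequence feature in their promoter windows. The ER stress response element, CCAAT, any 9 bases and then CCACG, to which the stress factor ATF6 binds with NF-Y, was searched on both strands of each RefSeq window. Each match therefore also counts as a match to CCAAT and to CCACG. The element was present for Calr, Canx and Alg12, 3 of the 28 members with a window (10.7%), against 0.137% of all 27025 symbols. Members were chosen for their part in the ER and all passed the FPKM filter, unlike all symbols, so this share is a description only. The windows are chr8:84846882-84847181 (minus strand) for Calr, chr11:50325624-50325923 (minus strand) for Canx and chr15:88819269-88819568 (minus strand) for Alg12, with the element in capitals.
Calr: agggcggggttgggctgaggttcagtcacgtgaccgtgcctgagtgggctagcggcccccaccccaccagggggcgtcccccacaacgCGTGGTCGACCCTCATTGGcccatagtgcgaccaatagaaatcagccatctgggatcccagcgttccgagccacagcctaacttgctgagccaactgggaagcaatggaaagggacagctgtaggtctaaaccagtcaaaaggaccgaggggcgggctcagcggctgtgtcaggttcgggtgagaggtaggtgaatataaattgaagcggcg
Canx: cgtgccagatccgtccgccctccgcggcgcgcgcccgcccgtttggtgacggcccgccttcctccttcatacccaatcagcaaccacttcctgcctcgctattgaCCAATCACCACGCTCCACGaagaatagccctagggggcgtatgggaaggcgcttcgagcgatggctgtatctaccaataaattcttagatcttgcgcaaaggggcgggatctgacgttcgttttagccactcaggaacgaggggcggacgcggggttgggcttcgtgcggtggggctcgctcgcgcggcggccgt
Alg12: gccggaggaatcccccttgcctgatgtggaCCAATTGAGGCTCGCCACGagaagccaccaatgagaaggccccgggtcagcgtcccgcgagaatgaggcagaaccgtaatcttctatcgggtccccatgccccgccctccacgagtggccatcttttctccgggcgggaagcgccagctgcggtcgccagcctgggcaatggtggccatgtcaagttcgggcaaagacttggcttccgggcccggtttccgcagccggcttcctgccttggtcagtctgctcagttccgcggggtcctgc
The element begins 162 bases before the start of Calr, where it reads on the opposite strand, 145 bases before that of Canx and 220 bases before that of Alg12. The 3 genes had log2 fold changes of -0.28, -0.52 and -0.12 (95% interval -0.88 to 0.63, adjusted p = 0.875) in that order. Alg12 was at 13.6, 12.1 and 18.0 FPKM in the IgM and 10.7, 9.25 and 22.5 FPKM in the IgG1 libraries, where library 3 held the highest value of all 6.

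Longer transcripts of the pathway had the lower fold changes. The Spearman correlation of log2 fold change with transcript length was -0.48 across the 33 genes, which share the same 6 libraries, and -0.36 across the 8765 tested genes with a known length. Of 9 members of 3000 nt or more, 8 had a negative fold change (median -0.52), the exception being Alg6, while 9 of 14 members shorter than 2000 nt were positive (median 0.12). After correction the medians were -0.16 and 0.04. Mogs, at 2780 nt, is of middle length, and the 3 members past the threshold in the lower direction are each longer than 3000 nt.

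**Figure D5:**
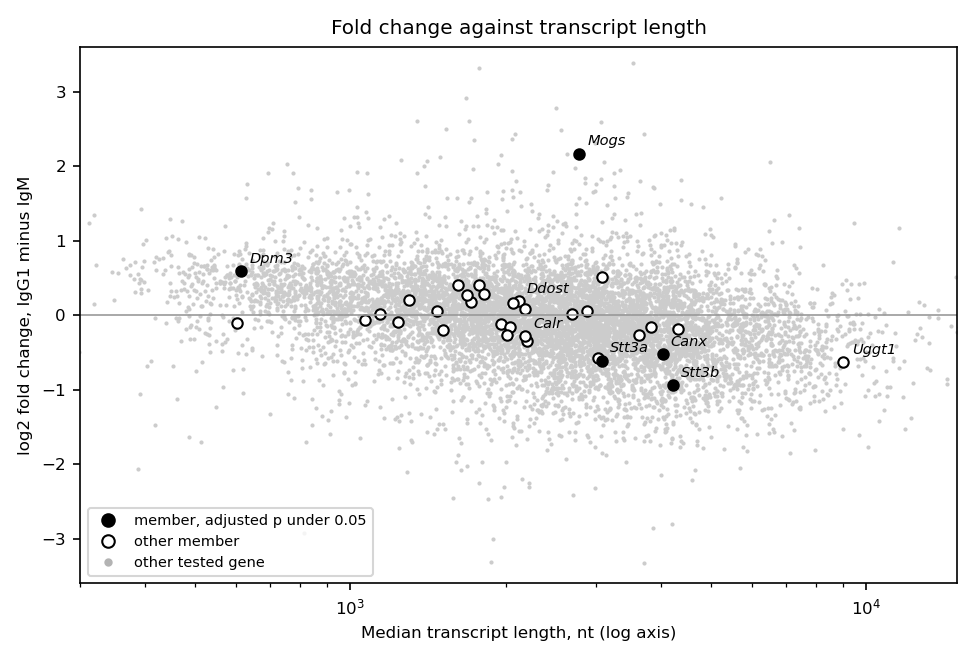
Log2 fold change (IgG1 minus IgM) against median transcript length (log axis) for tested genes with a known length (grey) and the 33 genes (open circles, filled where the adjusted p was under 0.05). The filled points for Stt3a, Stt3b and Canx lie among the long transcripts and Dpm3 among the short ones, in the direction of the grey cloud's slope. With the length and GC trend removed, their values were -0.32, -0.66, -0.16 and 0.19 in that order, and Stt3b alone of these stayed past the threshold. Mogs lies far above the cloud at 2780 nt.

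Spread between libraries was larger in IgG1 cells for the members as for all tested genes. The SD of log2(FPKM + 1) was larger in IgG1 than in IgM for 24 of the 33 members (72.7%), beside 67.1% of all tested genes, and the median SD was 0.20 in IgG1 and 0.14 in IgM for the members, beside 0.36 and 0.25 for all genes. IgG1 library 3 held the highest value for 13 members and the lowest for 7, and IgG1 library 2 the lowest for 10. The coefficient of variation in IgG1 cells ran from 2.71% for Calr to 74.4% for Alg13, and in IgM cells from 2.69% for Stt3a to 46.8% for Mogs.

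A second list held other genes of the pathway. Of its 33 genes, 32 were tested (Uggt2 was at or near 0), with 2 higher (6.25%, against 4.26% of all genes), 3 lower (9.38%, against 1.76%) and a median log2 fold change of -0.19. The higher genes were the small oligosaccharyltransferase subunits Ost4, at 1709 ± 185 in IgM and 2346 ± 193 in IgG1 cells (log2 fold change 0.46, SE 0.11, adjusted p = 0.0329), and Tmem258, at 2357 ± 209 in IgM and 3109.7 ± 243 in IgG1 cells (log2 fold change 0.40, SE 0.10, adjusted p = 0.0443). Krtcap2, a small subunit of the STT3A complex, was at 3965 FPKM in IgM and 4455 FPKM in IgG1 cells (log2 fold change 0.17, 95% interval -0.04 to 0.38, adjusted p = 0.333). These 3 have short transcripts (median 860 nt), and their corrected values were 0.27, 0.08 and -0.11, none past the threshold. The calls of Ost4 and Tmem258 were lost with quantiles normalized (0.07 and 0.17, adjusted p = 0.585 and 0.202), with Jchain left out of the scaling (0.23 and 0.17, adjusted p = 0.0957 and 0.186) and without IgM library 1 (adjusted p = 0.144 and 0.183).

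The lower genes act on glycoproteins after transfer. Pdia3, the disulfide isomerase ERp57 that works with calnexin and calreticulin, was at 1516 ± 98.4 in IgM and 1101 ± 135 in IgG1 cells (log2 fold change -0.47, SE 0.11, adjusted p = 0.0322). Edem1 and Edem3, which help mark misfolded glycoproteins for degradation through their mannoses, were at 1662 ± 45.6 in IgM and 1259.8 ± 45.3 in IgG1 cells (log2 fold change -0.40, SE 0.09, adjusted p = 0.0265) and at 48.5 ± 8.03 in IgM and 26.3 ± 3.72 in IgG1 cells (log2 fold change -0.86, SE 0.21, adjusted p = 0.0332). Their corrected values were -0.25, -0.00 and -0.65 for Pdia3, Edem1 and Edem3, with adjusted p of 0.125, 0.986 and 0.0972. Each of the 3 calls held in 2 of the 6 fits that left out a library, the largest adjusted p being 0.145, 0.121 and 0.189. Lman2, a lectin of the early secretory pathway, was the 1 gene of the second list past the threshold after correction, at 0.58 (SE 0.12, adjusted p = 0.0238), and was at 284 FPKM in IgM and 373 FPKM in IgG1 cells (log2 fold change 0.39, 95% interval 0.13 to 0.65, adjusted p = 0.08). Of the 13 tested genes of glycan quality control and mannose trimming, 10 were negative (76.9%, against 53.7% of all genes), and in 7 all IgM libraries lay above all IgG1 libraries (53.8%, against 13.5%). After correction their median log2 fold change was -0.07, against 0.02 for all genes, and 0 passed in the lower direction. Their transcripts were longer (median 2982 nt, against 2488 nt) and more abundant (median of the mean FPKM 311, against 12.8). What part this had in the shares was not tested. Of the 9 genes of dolichol and lipid-linked oligosaccharide assembly and the 7 of sugar nucleotide supply in this second list, 0 were higher and 0 lower (limma, with 0 of the first and 1 higher and 1 lower of the second at an unadjusted p under 0.05).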

How the data were processed

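RNA of 6 libraries (3 IgM, 3 IgG1) was purified with the miRNeasy Micro kit, amplified as full-length cDNA with SMART-Seq HT and tagmented with Nextera XT, per the labels' protocols. The submitters' processing notes name the mouse build mm10 with Bowtie2 2.3.5.1, TopHat2 2.1.1, Cuffdiff and Cufflinks 2.2.1. The authors deposited FPKM, 1 value per symbol and library, per the file headers. Their annotation was not given in the sources used here, nor were strand use and scaling.

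Genes with at least 1 FPKM in at least 3 libraries were tested on log2(FPKM + 1), where fold changes of low genes are understated, with limma 3.58.1 in R 4.3.3 (intensity trend, Benjamini-Hochberg over 9087 genes, threshold 0.05). The corrected values subtract each library's spline fit (4 degrees of freedom each for log length and GC) from the deviations from the gene means. Lengths and GC were medians over GENCODE vM21 basic transcripts, found for all 33 genes and 8765 tested genes. Exons of Rpn2, Alg1, Alg3, Dpm1, Pmm2 and Gmppb overlap another protein-coding gene and Calr has an annotated pseudogene copy, so their values are uncertain to that extent. RefSeq windows matched 28 of the 33 genes.

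The script was tested on simulated data, with 50 genes changed at each size. It recovered 10% of log2 changes of 0.5, 32% of 1, 70% of 2 and 98% of 3, with 3 false calls among 108. A member that did not pass may therefore still differ. The simulated noise was independent between genes and held no trend with transcript length, unlike these libraries. The share of false calls in the real data cannot be read from it. The changed genes were drawn from all tested genes except low ones, and members varied less than all genes, so recovery among members was not measured. The members, lists and tests were chosen with earlier results of these data known. Per-library values were set for members past the threshold and the 2 most abundant of each role. Those of Alg2, Alg12, Alg13, Mpi, Rpn1 and Uggt1 were added after values were seen. The summed level of the mature B cell list is not reported here. Immunoglobulin genes were not analysed here, so the isotype of a library rests on its label.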

Additional observations from a re-analysis of the deposited data

How the results depend on the processing

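Without the filter on low values the members past the threshold were 0 higher and 0 lower (3 and 8 at an unadjusted p under 0.05 with limma), and 2 and 4 of all genes. Without the intensity trend they were 0 and 0 (2 and 5 unadjusted), and 3 and 5 of all genes. Quantile normalization gave 1 higher and 9 lower members and 188 higher and 200 lower genes in all, with Rpn2 at -0.35 and Dad1 at -0.32 (both positive before, adjusted p = 0.0293 and 0.0422). Rescaling to equal summed FPKM without Jchain gave 1 and 8 members, and 177 and 393 of all genes in place of 387 and 160. Removing the length and GC trend gave 1 and 1 members, and 179 and 81 genes. With the replicate block added to that removal it was again 1 and 1. Leaving out 1 library gave 1 to 2 higher and 1 to 5 lower members, and 78 to 394 and 30 to 251 genes, each lowest count of all genes being without IgM library 1. The pseudocounts of 0.1 and 5, the filter at 5, median centring and robust moderation kept 2 higher members and 3 lower (4 at the filter of 5, where Alg2 passed). The cause of these changes was not tested. Mogs and Stt3b were past the threshold in 16 of 18 alternatives, the exceptions being no filter and no trend.

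Same-numbered libraries were not shown to pair: their deviations from the group means correlated at 0.101, -0.0315 and -0.000571. With the replicate block 2 members were higher and 3 lower, and 432 and 154 of all genes. The values of Alg13 rest on about 6 to 61 fragments by a rough estimate from FPKM, transcript length and depth.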
